A study of Homo sapiens with 6 samples.

Results

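The genes described here are the inhibitors of cyclin-dependent kinases and the G1 and G-type cyclins of SUM1315 cells. They were chosen by name: CDKN1A, CDKN1B, CDKN1C, CDKN2A, CDKN2B, CDKN2C, CCND1, CCND3, CCNG1 and CCNG2. Of these 10 genes, 8 had values, among 26409 genes with values in all, and CDKN2A and CDKN2B were not analysed here. SUM1315 is an established human line of triple-negative breast cancer cells, labelled as mammary and as wild type. Cells were kept for 24 h at 1% oxygen (hypoxia) or for 24 h at 21% oxygen (normoxia), and RNA was sequenced from 3 libraries of each. All 6 libraries came from the same line, grown in medium with serum, insulin and EGF, so growth factors that raise D-type cyclins were supplied in both groups. The study concerned ribosome production under low oxygen, and the genes described here belong to its transcriptome-wide comparison of both oxygen levels. The labels do not say whether libraries of a group came from separate cultures, so each p-value reflects only how far these libraries differ, and that spread may be technical.

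A cell leaves the G1 phase when D-type cyclins bind CDK4 or CDK6 and E-type cyclins bind CDK2, and these kinases then phosphorylate the retinoblastoma protein and free the E2F factors. The INK4 inhibitors (CDKN2A to CDKN2D) bind CDK4 and CDK6, whereas the CIP and KIP inhibitors (CDKN1A, CDKN1B and CDKN1C) bind assembled complexes of cyclin and kinase. The G-type cyclins stand apart from this engine: they bind protein phosphatase 2A, CCNG1 takes part in the control of MDM2, and CCNG2 is a FOXO target associated with slowed proliferation. Low oxygen is known to slow passage through G1 in many cell types.

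The bases ahead of the start sites of the members with the clearest changes are shown first, because both genes that rose and the G-type cyclin that fell can then be read side by side. The sequences are from RefSeq on GRCh38.p14, cover the 250 bases before the RefSeq start of each gene and are written 5′ to 3′ on the gene's own strand, which is the plus strand for all 3. Windows were found for 6 members, and CCND1 and CDKN1C had no entry. Capitals mark every match, on either strand, to ACGTG or GCGTG, the forms of the core of the hypoxia response element, or to CACGTG, the E-box bound by basic helix-loop-helix factors.
CCNG2: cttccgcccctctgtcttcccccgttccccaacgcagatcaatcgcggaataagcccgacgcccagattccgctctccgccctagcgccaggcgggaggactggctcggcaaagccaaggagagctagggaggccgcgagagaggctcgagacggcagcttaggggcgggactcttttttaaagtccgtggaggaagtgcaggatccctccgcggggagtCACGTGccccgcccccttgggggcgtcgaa
CDKN1A: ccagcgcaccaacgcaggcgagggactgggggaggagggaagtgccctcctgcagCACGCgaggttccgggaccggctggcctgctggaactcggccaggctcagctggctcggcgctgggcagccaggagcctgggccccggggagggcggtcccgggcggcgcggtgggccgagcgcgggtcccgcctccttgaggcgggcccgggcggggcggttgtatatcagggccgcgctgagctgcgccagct
CCNG1: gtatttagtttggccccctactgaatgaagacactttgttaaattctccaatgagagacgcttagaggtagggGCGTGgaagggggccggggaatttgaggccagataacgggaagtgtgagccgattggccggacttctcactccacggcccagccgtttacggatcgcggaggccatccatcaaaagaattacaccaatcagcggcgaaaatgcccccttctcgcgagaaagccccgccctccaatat

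The CCNG2 window (chr4:77156957-77157206) held the palindrome CACGTG at position -30, counted from the start site, which gives ACGTG on both strands. Of 35116 windows of the same length in the RefSeq table, 6.34% held CACGTG and 18.5% held ACGTG on either strand. The CDKN1A window (chr6:36678464-36678713) held a single GCGTG match at -195, on the opposite strand, and the CCNG1 window (chr5:163437321-163437570) a single GCGTG match at -177. GCGTG stood in 32.2% of all windows. CCNG1, which fell, and CDKN1A, which rose, thus each held a single match to GCGTG and none to ACGTG. The forkhead core GTAAACA, present in 2.98% of windows, and the E2F cores TTTCGCGC (0.439%) and TTTGGCGC (0.55%) were not in these letters. Among the members not printed, CACGTG stood at -69 and at -220 in separate CDKN2C windows. The RefSeq starts of these windows lay 1550 and 7950 bases from the start of its leading transcript. The nearest CDKN2C window held GCGTG at -98 and -53. CDKN1B held GCGTG at -185, and CCND3 held GCGTG at -197 in its furthest window only. CDKN2C and CDKN1B did not pass the test between groups. A match is a description of the letters, not evidence that a factor binds there.

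The deposited values are RPKM per transcript (reads scaled for the length of the transcript and for sequencing depth), and they were summed over the transcripts of each gene. Depth, estimated from the smallest steps of the values, was 44.0 to 50.6 M reads in hypoxia and 50.2 to 50.8 M reads in normoxia, with hypoxia replicate 3 the shallowest. Across the whole table, 11884 genes passed the filter of more than 1 RPKM in at least 3 libraries and were tested with limma on log2(RPKM + 1). Of these, 1478 were higher and 2901 lower in hypoxia at a Benjamini-Hochberg adjusted p under 0.05, and their median log2 fold change was -0.08. This split depended on scaling: 2026 genes were higher and 1421 lower with median-of-ratios scaling, 2174 and 1131 with upper-quartile scaling, and 1176 and 4219 after each library was scaled to the same sum. All 7 tested genes of a list of 8 HIF targets were higher in hypoxia, among them DDIT4 (log2 fold change 3.02, SE 0.09, adjusted p = 2.09e-09) and SLC2A1 (2.88, SE 0.09, adjusted p = 4.15e-09). The labelled cell type was checked against markers: the summed level of 8 mammary epithelial markers was 0.112 to 0.253 RPKM in hypoxia and 0.0860 to 0.255 RPKM in normoxia, so none of them was expressed at a level that could be tested. Of 5 mesenchymal markers, 4 were tested, 1 rose and 3 did not pass the test, with a median log2 fold change of -0.11. VIM, the marker that rose, stood at 6742 ± 609.7 RPKM in hypoxia and 4840 ± 86.5 RPKM in normoxia (SD, n = 3 each). CDH2 (-0.26, adjusted p = 0.111), ZEB1 (-0.19, adjusted p = 0.115) and FN1 (-0.03, adjusted p = 0.844) were the others tested, and SPARC was at or under 0.43 RPKM in every library. ESR1 was at or under 0.209 RPKM in every library, and ERBB2 at 22.1 ± 1.77 RPKM in hypoxia and 21.6 ± 0.327 RPKM in normoxia. Of markers of immune, endothelial and fat cells, 6 of 9 had values, and their sum was 73.8 to 80.9 RPKM in hypoxia and 45.9 to 48.4 RPKM in normoxia. Nearly all of that sum was CD68, a lysosomal protein, while PTPRC, CD14, PECAM1, VWF and PLIN1 were each at or under 0.172 RPKM in every library. In RNA from bulk cells, fewer cells of a kind and less RNA per cell cannot be told apart.

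Of the 8 members with values, 7 passed the filter and were tested. CCNG2 and CDKN1A rose, CCNG1 and CCND3 fell, and CDKN1B, CDKN2C and CCND1 did not pass the test. Of the 7, 28.6% rose and 28.6% fell, and of all genes tested 12.4% rose, 24.4% fell and 36.8% passed in either direction. With 7 genes, the share that rose differs from the background by about 1 gene. The groups did not overlap for 4 of the 7, against 52.0% of all genes. The median log2 fold change of the 7 was 0.04. The size of the 2 rises was less usual: CCNG2 ranked 69th and CDKN1A 81st by log2 fold change of RPKM + 1 among the 11884 genes. Of these genes, 0.909% rose by at least 2-fold on that scale with an adjusted p under 0.05. The scale understates changes at low levels, so more genes could pass 2-fold in RPKM itself.

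**Figure D1:**
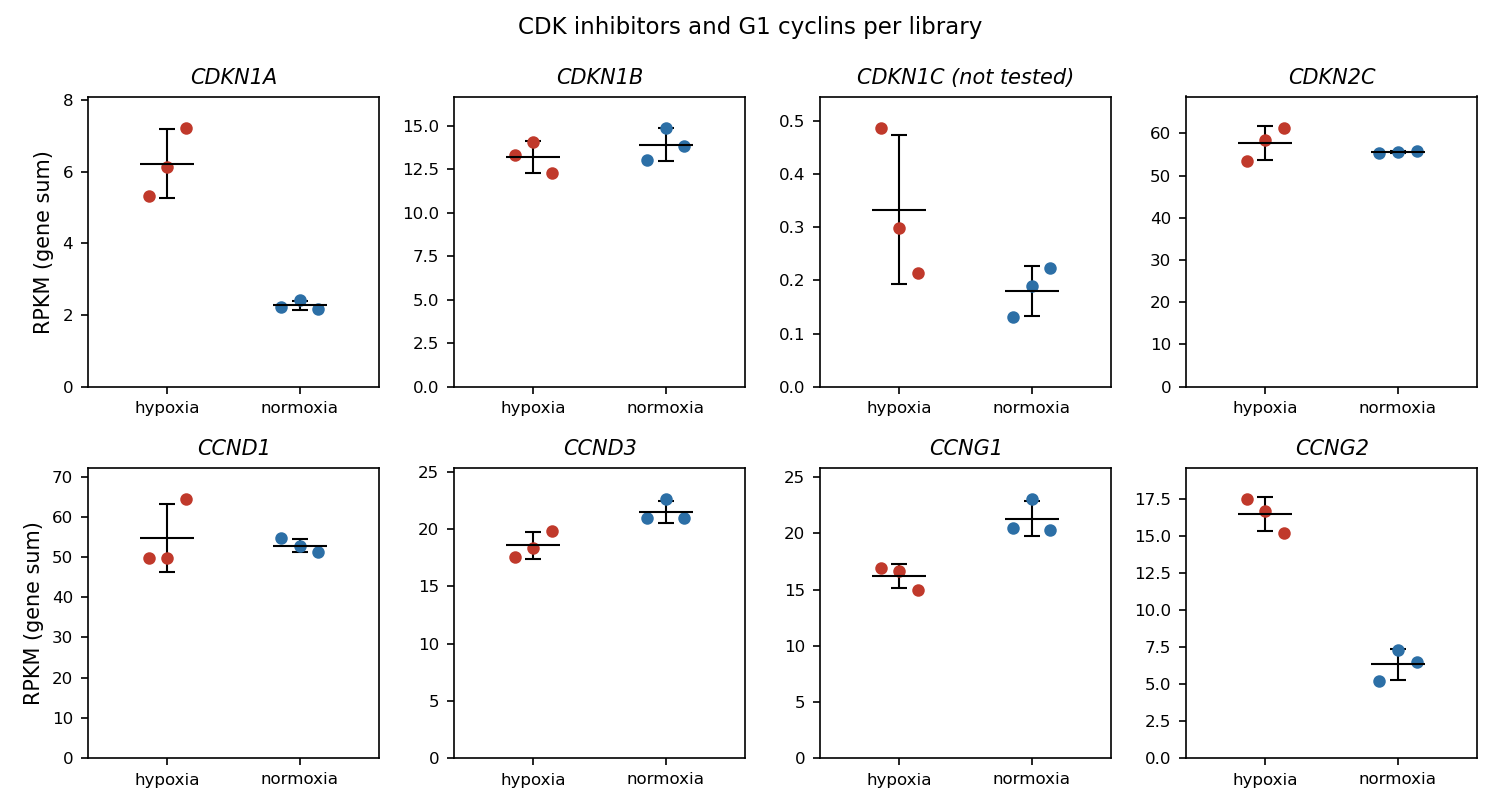
Level of each of the 8 members with values in each library, in RPKM summed over transcripts (y axis, starting at 0), for hypoxia (left) and normoxia (right). Points are libraries, and bars show the mean and SD of 3. The hypoxic points of CDKN1A (5.32 to 7.23) and CCNG2 (15.2 to 17.5) lie above all their normoxic points, and those of CCNG1 (14.96 to 16.96) and CCND3 (17.6 to 19.8) lie below.

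Among the CIP and KIP inhibitors, CDKN1A was the member that rose. CDKN1A (ENSG00000124762, chromosome 6, 36676460 to 36687339, plus strand, GRCh38) encodes p21, the inhibitor through which several routes lead to arrest. It stood at 5.32, 6.14 and 7.23 RPKM in hypoxia replicates 1, 2 and 3, against 2.22, 2.42 and 2.17 RPKM in normoxia. Every hypoxic library was above every normoxic one, the means were 6.23 ± 0.962 RPKM in hypoxia and 2.27 ± 0.132 RPKM in normoxia (SD, n = 3 each), and the ratio of the means was 2.75. On the log2(RPKM + 1) scale, which understates the change of genes at low levels, the difference was 1.14 (SE 0.10, limma adjusted p = 2.3e-05). The spread was wider in hypoxia than in normoxia. An estimated 221 to 637 reads per library lay behind these values. Its main coding transcript, ENST00000244741, carried 89.7 ± 1.67% of the RPKM in hypoxia and 90.5 ± 2.04% in normoxia (SD, n = 3 each; exact permutation p = 0.7), so the rise lay in the same transcript that led in normoxia. The long noncoding gene DINOL on the opposite strand shares 146 exon bases with CDKN1A and was at or near 0.

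CDKN1B encodes p27, which holds cyclin E and CDK2 inactive in quiescent cells (ENSG00000111276, chromosome 12, 12715058 to 12722371, plus strand). It stood at 13.3, 14.1 and 12.3 RPKM in hypoxia, against 13.0, 14.9 and 13.9 RPKM in normoxia. The groups overlapped, and the log2 difference of -0.07 (SE 0.08, limma adjusted p = 0.498) had a 95% interval of -0.24 to 0.10, which leaves out changes as large as that of CDKN1A. CDKN1B was the more abundant of the pair in both groups: the RPKM of CDKN1A was 0.399, 0.436 and 0.589 of that of CDKN1B in hypoxia, against 0.171, 0.162 and 0.156 in normoxia. The log2 ratio of CDKN1A to CDKN1B was thus 1.21 higher in hypoxia, with no overlap between groups (two-sided exact permutation p = 0.1, which is the lowest value possible with 3 libraries a group, and 0.1 after adjustment over the pairs). This ratio does not depend on how libraries are scaled apart from the added 1 RPKM.

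CDKN1C encodes p57, an imprinted inhibitor used mainly in development (ENSG00000129757, chromosome 11, 2883213 to 2885773, minus strand). It was barely detected, at 0.488, 0.298 and 0.214 RPKM in hypoxia, against 0.131, 0.189 and 0.224 RPKM in normoxia, or an estimated 12.0 to 38.9 reads per library. The groups overlapped, with hypoxia replicate 1 above the rest. It did not pass the filter, and in a limma fit without a filter its log2 difference was 0.17 (SE 0.08, adjusted p = 0.282).

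CDKN2C encodes p18, the INK4 inhibitor with the highest level here (ENSG00000123080, chromosome 1, 50960745 to 50974633, plus strand). It stood at 53.4, 58.4 and 61.4 RPKM in hypoxia, against 55.4, 55.6 and 55.8 RPKM in normoxia. The normoxic libraries lay within the range of the hypoxic ones, and the log2 difference was 0.05 (SE 0.06, limma adjusted p = 0.552, 95% interval -0.09 to 0.19). Beneath this total, the make-up of its transcripts differed slightly. The shorter coding transcript ENST00000371761, of 1220 bases, stood at 3.48, 3.22 and 2.93 RPKM in hypoxia, against 2.49, 2.31 and 2.40 RPKM in normoxia. The leading transcript ENST00000396148 carried 92.6 ± 0.713% of the RPKM in hypoxia and 94.2 ± 0.114% in normoxia (SD, n = 3 each). The groups did not overlap for this share, at an exact permutation p = 0.1, the lowest value possible and not adjusted over the members. The shares of the other tested members overlapped between groups. CDKN2D, the remaining INK4 gene and not a member, was higher at 12.9 ± 1.4 RPKM in hypoxia and 10.4 ± 0.0827 RPKM in normoxia (SD, n = 3 each), with a log2 difference of 0.27 (SE 0.08, limma adjusted p = 0.0247). That call was lost without hypoxia replicate 2 and without each of the normoxic libraries. It was also lost without a filter, with read equivalents and with the GC trend removed (0.14, adjusted p = 0.166).

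**Figure D2:**
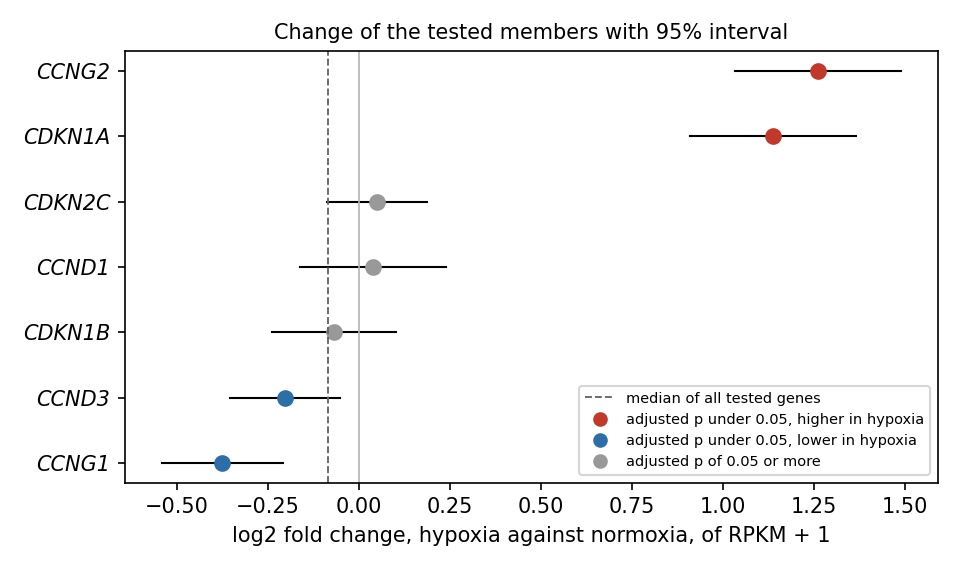
Log2 fold change of RPKM + 1, hypoxia against normoxia (x axis), for the 7 tested members (y axis), with 95% intervals from limma over 3 libraries a group. The dashed line is the median of all tested genes, -0.08. CCNG2 (1.26) and CDKN1A (1.14) lie far to the right, and the other 5 members lie between -0.38 and 0.05.

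The D-type cyclins, which carry growth factor signals to CDK4 and CDK6, showed small differences or none that passed the test. CCND1 (ENSG00000110092, chromosome 11, 69641087 to 69654474, plus strand) stood at 49.7, 49.9 and 64.5 RPKM in hypoxia, against 54.7, 52.7 and 51.3 RPKM in normoxia. Hypoxia replicate 3 was above all others and hypoxia replicates 1 and 2 were below all others, so the groups overlapped. The log2 difference was 0.04 (SE 0.09, limma adjusted p = 0.767), and -0.08 without hypoxia replicate 3 (adjusted p = 0.241).

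The high library traced to a short transcript with a retained intron. ENST00000539241, of 920 bases, stood at 17.2, 16.5 and 30.2 RPKM in hypoxia, against 22.8, 21.3 and 19.2 RPKM in normoxia. The main coding transcript ENST00000227507, of 4307 bases, stood at 30.7, 31.8 and 28.4 RPKM in hypoxia, against 28.9, 29.7 and 30.1 RPKM in normoxia. The coding transcript of hypoxia replicate 3 was thus the lowest of all 6, while its retained-intron transcript was the highest. A sum of RPKM counts a read in a short transcript for more than a read in a long one. CCND1 shares 497 exon bases with LTO1 on the opposite strand, and the library kit does not mark strand, so reads there could belong to either gene.

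CCND3 (ENSG00000112576, chromosome 6, 41934933 to 42050357, minus strand) stood at 17.6, 18.3 and 19.8 RPKM in hypoxia, against 21.0, 22.7 and 21.0 RPKM in normoxia. All hypoxic libraries were below all normoxic ones, with means of 18.6 ± 1.15 RPKM in hypoxia and 21.6 ± 0.962 RPKM in normoxia (SD, n = 3 each) and a log2 difference of -0.20 (SE 0.07, limma adjusted p = 0.0387). The fall passed the threshold narrowly. It kept its direction but missed the threshold in 10 of 16 alternatives, including the fits without hypoxia replicate 1, without hypoxia replicate 2 and without each normoxic library, where adjusted p ranged from 0.0650 to 0.166. CCND2, the remaining D-type cyclin, was at or near 0 in every library. The log2 ratio of CCND1 to CCND3 averaged 1.499 ± 0.135 in hypoxia and 1.26 ± 0.0797 in normoxia (SD, n = 3 each), without overlap (difference 0.24, two-sided exact permutation p = 0.1). With coding transcripts only, CCND1 and CCND3 stood at 28.6 and 19.5 RPKM in hypoxia replicate 3. They stood at 30.4 and 20.7 RPKM in normoxia replicate 3, a ratio marginally above the hypoxic one. In hypoxia replicates 1 and 2, coding CCND1 stood at 30.97 and 32.03 RPKM and coding CCND3 at 17.47 and 18.18 RPKM. In normoxia replicates 1 and 2, CCND1 stood at 29.002 and 30.08 RPKM and CCND3 at 20.36 and 21.95 RPKM. Hypoxia replicates 1 and 2 thus kept a higher ratio than every normoxic library. With coding transcripts only, the lack of overlap was lost through the near tie of the replicate 3 libraries. The difference in the coding ratio was not tested.

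The G-type cyclins moved in opposite directions. CCNG2 (ENSG00000138764, chromosome 4, 77157151 to 77433388, plus strand) stood at 17.5, 16.7 and 15.2 RPKM in hypoxia, against 5.21, 7.27 and 6.502 RPKM in normoxia. All hypoxic libraries were more than 2-fold above the highest normoxic one, the means were 16.5 ± 1.15 RPKM in hypoxia and 6.33 ± 1.04 RPKM in normoxia (SD, n = 3 each), and the ratio of the means was 2.60. The log2 difference was 1.26 (SE 0.10, limma adjusted p = 1.08e-05).

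The rise of CCNG2 was spread over several of its transcripts. The leading coding transcript ENST00000502280 stood at 7.33, 6.67 and 4.93 RPKM in hypoxia, against 1.94, 2.86 and 3.05 RPKM in normoxia. ENST00000497512, annotated as a processed transcript without a coding frame, stood at 4.97, 4.70 and 6.999 RPKM in hypoxia, against 1.52, 2.62 and 1.63 RPKM in normoxia. Each was higher in every hypoxic than in every normoxic library, and so was the long coding transcript ENST00000316355, at 2.28 ± 0.791 RPKM in hypoxia and 1.18 ± 0.113 RPKM in normoxia (SD, n = 3 each). In hypoxia replicate 3 the sum of the coding transcripts was at its lowest hypoxic level and the processed transcript at its highest. The share of the leading transcript was 38.1 ± 5.04% in hypoxia and 41.2 ± 5.04% in normoxia (SD, n = 3 each; exact permutation p = 0.6).

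CCNG1 (ENSG00000113328, chromosome 5, 163437569 to 163446151, plus strand) stood at 16.96, 16.67 and 14.96 RPKM in hypoxia, against 20.5, 23.1 and 20.3 RPKM in normoxia. No hypoxic library reached the lowest normoxic one, and the means were 16.2 ± 1.08 RPKM in hypoxia and 21.3 ± 1.54 RPKM in normoxia (SD, n = 3 each). The log2 difference was -0.38 (SE 0.08, limma adjusted p = 0.00393), and it passed the threshold in all 16 alternatives. The coding transcript ENST00000340828 carried the fall, at 12.3, 13.0 and 9.38 RPKM in hypoxia, against 15.7, 16.6 and 16.7 RPKM in normoxia. The retained-intron transcript ENST00000506186 overlapped between groups, at 2.90, 2.85 and 3.67 RPKM in hypoxia, against 3.30, 5.11 and 2.74 RPKM in normoxia.

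**Figure D3:**
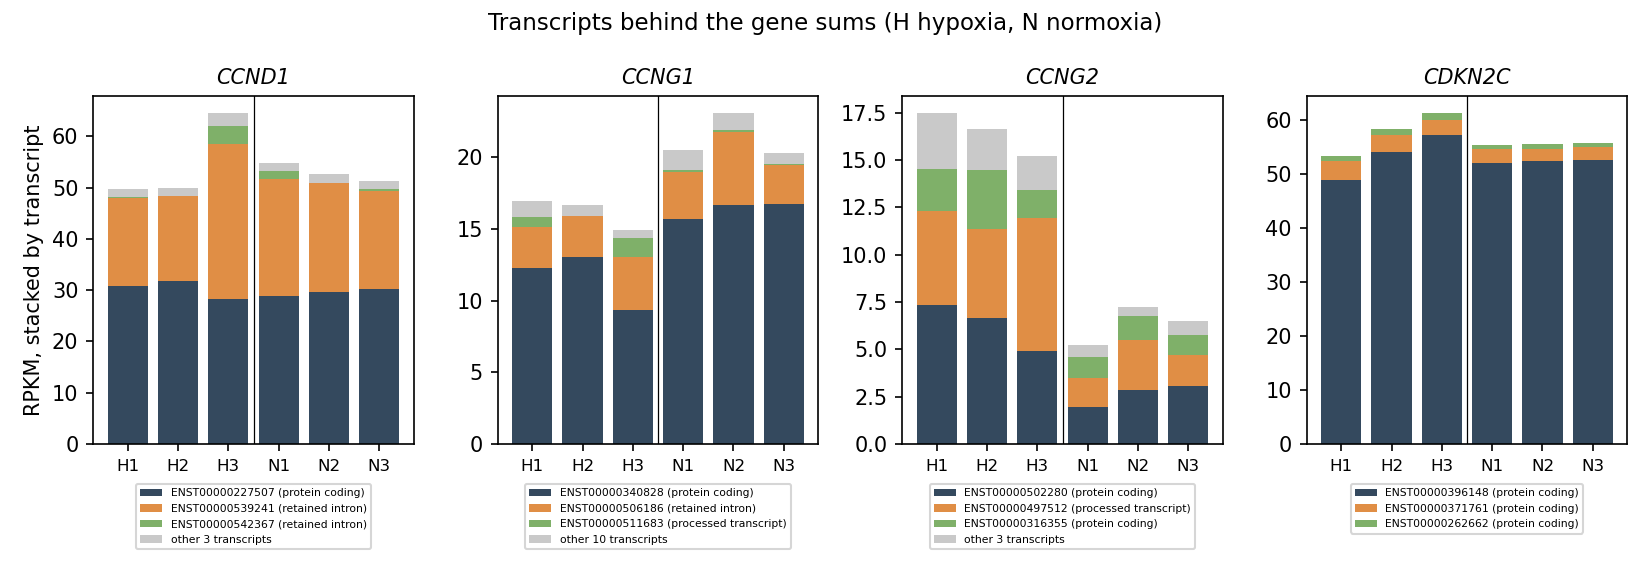
RPKM of the leading transcripts (colours) stacked to the gene sum (y axis) for CCND1, CCNG1, CCNG2 and CDKN2C in hypoxia replicates 1 to 3 (H1 to H3) and normoxia replicates 1 to 3 (N1 to N3). In CCND1 the retained-intron transcript is tallest in hypoxia replicate 3 (30.2 RPKM), and in CCNG2 the 3 transcripts drawn by name are each taller in every hypoxic than in every normoxic library.

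Set against each other within a library, the G-type cyclins were level in hypoxia and far apart in normoxia. The RPKM of CCNG2 was 1.03, 1.00 and 1.02 of that of CCNG1 in hypoxia, against 0.254, 0.315 and 0.320 in normoxia. The log2 ratio was 1.64 higher in hypoxia (two-sided exact permutation p = 0.1, the smallest possible). This was the largest of the 4 differences in ratio computed, 6 pairs having been planned and 2 of them resting on genes not analysed here. The log2 ratio of CDKN1C to CDKN1B differed by 0.24, with no overlap on the log2(RPKM + 1) scale although CDKN1C alone overlapped and rests on few reads.

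**Figure D4:**
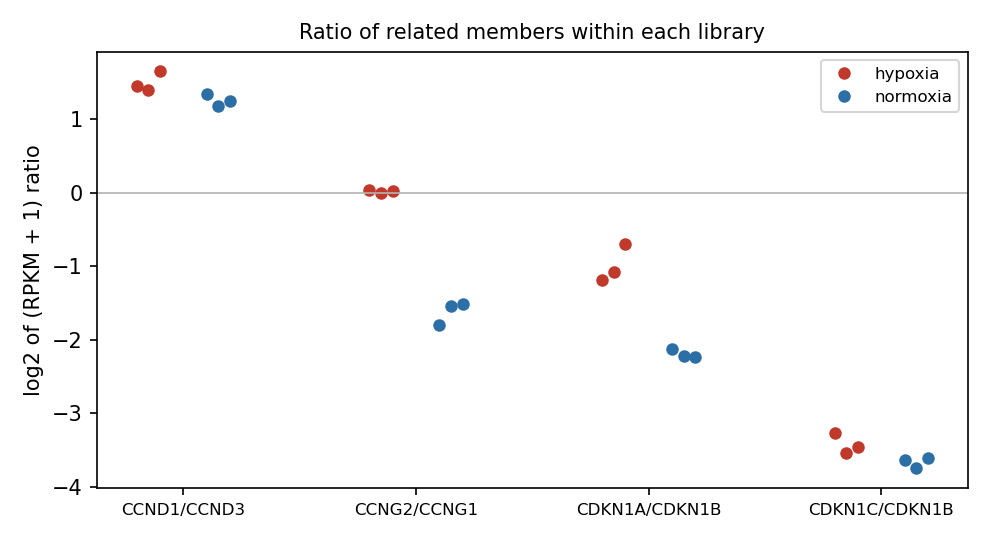
Log2 ratio of RPKM + 1 (y axis) between related members within each library, for hypoxia (left of each pair) and normoxia (right). The CCNG2 to CCNG1 ratio lies near 0 in hypoxia (mean 0.02) and near -1.61 in normoxia, and the CDKN1A to CDKN1B ratio averages -0.98 in hypoxia and -2.19 in normoxia.

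RPKM is scaled by length, so levels can be ordered between genes. In hypoxia the order by mean RPKM was CDKN2C (57.7), CCND1 (54.7), CCND3 (18.6), CCNG2 (16.5), CCNG1 (16.2), CDKN1B (13.2), CDKN1A (6.23) and CDKN1C (0.333). CDKN2C and CCND1 overlapped in their libraries, and so did CCNG2 and CCNG1, while the other neighbours were separate. In normoxia CDKN2C (55.6), CCND1 (52.9), CCND3 (21.6), CCNG1 (21.3), CDKN1B (13.9), CCNG2 (6.33), CDKN1A (2.27) and CDKN1C (0.181) followed each other, with overlap only between CCND3 and CCNG1. On these gene sums the change of place was that of CCNG2, which stood below CDKN1B in every normoxic library and above it in every hypoxic one. This change of place rests on the processed transcript: the coding transcripts of CCNG2 alone summed to 12.5, 12.0 and 8.22 RPKM in hypoxia, below CDKN1B in every hypoxic library. The coding transcripts of CCNG1 summed to 13.1, 13.3 and 9.66 RPKM in hypoxia, also below CDKN1B in every hypoxic library. In normoxia they summed to 16.5, 17.5 and 17.1 RPKM, above CDKN1B in every library. Those of CCND1 summed to 31.0, 32.0 and 28.6 RPKM in hypoxia, below CDKN2C without overlap. The order thus depends on which transcripts are summed.

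Genes with the profile most like that of each raised member were sought among 7957 protein-coding genes with a mean of at least 5 RPKM, by the root mean square distance over the 6 libraries of log2(RPKM + 1) relative to the normoxia mean. For CDKN1A they were VKORC1, the vitamin K epoxide reductase (distance 0.07, with 201.8 RPKM in hypoxia and 92.5 in normoxia), and PLOD1, a lysyl hydroxylase of collagen (0.07, with 154.4 RPKM in hypoxia and 72.5 in normoxia). For CCNG2 they were P4HA1, a prolyl hydroxylase of collagen (0.13, with 23.8 RPKM in hypoxia and 9.23 in normoxia), and STC2, a secreted stanniocalcin (0.13, with 147.5 RPKM in hypoxia and 59.4 in normoxia). The added 1 RPKM understates the change of CDKN1A, at 6.23 RPKM in hypoxia and 2.27 in normoxia, more than that of VKORC1 and PLOD1. Their likeness to CDKN1A is therefore one on that scale.

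Among the kinases, partner cyclins and targets of these members, more genes passed the test as lower than as higher in hypoxia. This also held over all genes tested, with 2901 lowered and 1478 raised. Of 22 listed genes of the G1 kinases, cyclins, pocket proteins and E2F factors, 21 were tested. Of the 21, 1 (4.76%) rose and 11 (52.4%) fell, against 12.4% raised and 24.4% lowered over all genes. Their median log2 fold change was -0.19, against -0.08 over all genes. CCNH, the cyclin of the CDK-activating kinase, had 19.1 ± 1.25 RPKM in hypoxia and 26.1 ± 1.57 RPKM in normoxia (log2 difference -0.43, limma adjusted p = 0.00144). CDC25A, the phosphatase that activates CDK2, had 7.37 ± 0.622 RPKM in hypoxia and 10.2 ± 0.533 RPKM in normoxia (-0.42, adjusted p = 0.0034). CCNE1, the partner of CDK2, had 12.2 ± 1.18 RPKM in hypoxia and 15.9 ± 0.701 RPKM in normoxia (-0.36, adjusted p = 0.00611). All 3 thus fell without overlap between groups. CDK6 fell by 0.36 (adjusted p = 0.0184), a call lost without normoxia replicate 2 or 3 and also without a filter (adjusted p = 0.134). E2F1 fell by 0.17 (adjusted p = 0.0315), a call lost without any of the normoxic libraries. CDK2 (-0.08, adjusted p = 0.31), CDK4 (-0.12, adjusted p = 0.142), CCNE2 (-0.09, adjusted p = 0.649) and RB1 (0.01, adjusted p = 0.906) did not pass the test. CDK4 passed as lower with the GC trend removed (-0.17, adjusted p = 0.0176) and without hypoxia replicate 3 (-0.16, adjusted p = 0.0461). It also did so after each library was scaled to the same sum (-0.19, adjusted p = 0.0150). RB1 passed as higher with the GC trend removed (0.18, adjusted p = 0.0320). The count of 11 was 5, 5 and 6 without normoxia replicates 1, 2 and 3, 6 without a filter, 4 with median-of-ratios scaling and 3 with upper-quartile scaling. Either scaling also ended the calls of CDK6 and E2F1. In the other direction, the count was 13 after each library was scaled to the same sum. It was 12 with protein-coding transcripts only and with read equivalents.

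Genes that turn over the inhibitors and G1 cyclins gave 0 raised and 6 (37.5%) lowered of 16 tested at adjusted p under 0.05 with limma, against 12.4% raised and 24.4% lowered over all genes. Their median was -0.13, and at an unadjusted p under 0.05 the count raised was also 0. SKP2, the ubiquitin ligase subunit that targets p27, had 6.51 ± 0.641 RPKM in hypoxia and 8.33 ± 0.21 RPKM in normoxia (-0.32, adjusted p = 0.0133). Its scaffold CUL1 had 22.1 ± 4.75 RPKM in hypoxia and 30.2 ± 2.05 RPKM in normoxia (-0.46, adjusted p = 0.0183). FBXW7, which targets cyclin E, had 1.57 ± 0.225 RPKM in hypoxia and 2.2 ± 0.231 RPKM in normoxia (-0.32, adjusted p = 0.0302). The calls were fragile: SKP2 was lost without normoxia replicate 2, CUL1 without normoxia replicate 2 or 3, FBXW7 without hypoxia replicate 2 or any normoxic library, and the count of 6 became 1 without normoxia replicate 2, 2 without normoxia replicate 3, 1 without a filter, 1 with median-of-ratios scaling and 0 with upper-quartile scaling. The count lowered was instead 9 with the GC trend removed, 8 after each library was scaled to the same sum and 7 with read equivalents. No gene of the list rose in any of the 16 alternatives.

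CCNG2 is a known FOXO target, and of 15 listed FOXO factors and targets 11 were tested, 1 (9.09%) rose and 1 (9.09%) fell, with a median of -0.01, against 12.4% raised and 24.4% lowered over all genes. PINK1, a mitochondrial kinase, had 28.9 ± 2.44 RPKM in hypoxia and 17.8 ± 0.31 RPKM in normoxia (0.66, limma adjusted p = 8.84e-05), and SOD2, the mitochondrial superoxide dismutase, had 65.0 ± 3.16 RPKM in hypoxia and 78.9 ± 0.594 RPKM in normoxia (-0.28, adjusted p = 0.00427). FOXO3 had 3.6 ± 0.383 RPKM in hypoxia and 3.02 ± 0.0563 RPKM in normoxia (0.19, adjusted p = 0.116, and 0.0447 without hypoxia replicate 2), and FOXO1 had 1.31 ± 0.107 RPKM in hypoxia and 1.56 ± 0.345 RPKM in normoxia (-0.14, adjusted p = 0.337). FOXO3 also passed the threshold with read equivalents (0.26, adjusted p = 0.0264) and with upper-quartile scaling (0.27, adjusted p = 0.0435). The count raised was thus 2 in these 3 alternatives. The count lowered was 2 without hypoxia replicate 1, after each library was scaled to the same sum, with protein-coding transcripts only, with read equivalents and with the replicate block.

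Of 7 listed partners of the G-type cyclins, all tested, 1 (14.3%) rose and 0 fell at adjusted p under 0.05 with limma, against 12.4% raised and 24.4% lowered over all genes. Their median was -0.11, and 2 were lower at an unadjusted p under 0.05. The gene that rose was PPP2R5B, a regulatory subunit of protein phosphatase 2A, with 6.34 ± 0.903 RPKM in hypoxia and 3.13 ± 0.142 RPKM in normoxia (0.82, limma adjusted p = 0.000195). MDM2, a ubiquitin ligase linked to CCNG1 but not in that list, had 7.19 ± 0.927 RPKM in hypoxia and 8.58 ± 0.589 RPKM in normoxia (-0.23, adjusted p = 0.075). Its call changed without hypoxia replicate 1 (-0.31, adjusted p = 0.0265), with read equivalents (-0.39, adjusted p = 0.00801) and after each library was scaled to the same sum (-0.29, adjusted p = 0.0429), and its log2 difference was -0.12 with the GC trend removed. The count of partners lowered was 1 without hypoxia replicate 1, without hypoxia replicate 3, with protein-coding transcripts only and with read equivalents. It was 2 after removal of the GC trend and 4 after each library was scaled to the same sum. The count raised was 2 with upper-quartile scaling.

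Of 16 upstream regulators of the inhibitors, 15 were tested, 1 (6.67%) rose and 4 (26.7%) fell, with a median of -0.03, against 12.4% raised and 24.4% lowered over all genes. EZH2, the methyltransferase that silences the CDKN2A locus, had 24.3 ± 4.51 RPKM in hypoxia and 32.9 ± 1.77 RPKM in normoxia (-0.44, limma adjusted p = 0.0116), and TWIST1, a mesenchymal transcription factor, had 48.1 ± 1.99 RPKM in hypoxia and 61.6 ± 1.93 RPKM in normoxia (-0.35, adjusted p = 0.00144). ETS1, an activator of CDKN2A, had 38.6 ± 1.45 RPKM in hypoxia and 33.9 ± 0.857 RPKM in normoxia (0.19, adjusted p = 0.0305), a call lost without hypoxia replicate 1 or any normoxic library, and also with the replicate block, with read equivalents and after each library was scaled to the same sum. MYC, which represses CDKN1A and other inhibitors, had 93.0 ± 6.51 RPKM in hypoxia and 94.6 ± 0.497 RPKM in normoxia (-0.03, adjusted p = 0.756). The call of EZH2 was lost with upper-quartile scaling (-0.34, adjusted p = 0.0587) and without a filter (adjusted p = 0.132). The count of 4 was 2 without each normoxic library, 2 with median-of-ratios scaling, 1 with upper-quartile scaling and 1 without a filter.

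**Figure D5:**
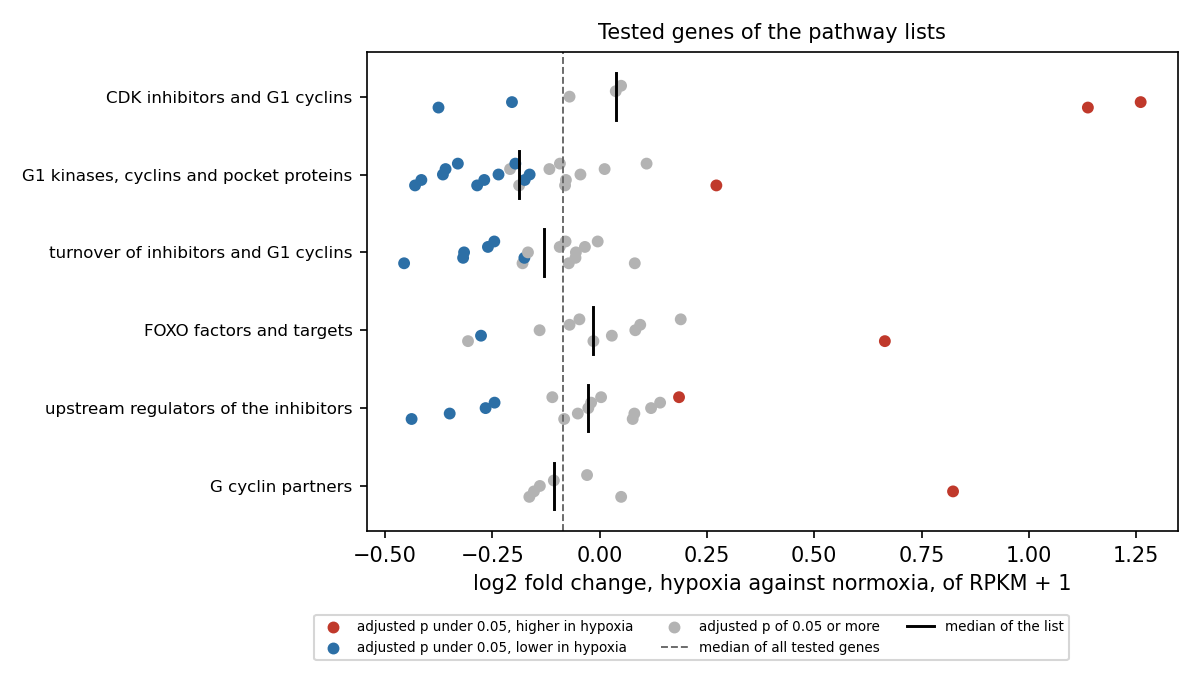
Log2 fold change of RPKM + 1, hypoxia against normoxia (x axis), of every tested gene (points) of the members and 5 pathway lists (y axis). Short bars are list medians and the dashed line is the median of all tested genes, -0.08. The points of the G1 kinases, cyclins and pocket proteins lie between -0.43 and 0.27, whereas the members reach 1.26.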

How the data were processed

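RNA was sequenced from 3 hypoxic and 3 normoxic libraries of SUM1315 cells, from 500 ng of total RNA, per the labels' protocols, and the kit named there keeps no strand. The submitters' processing notes list HISAT2, Partek, SAMtools and Trimmomatic, with GRCh38 and hg38 as builds. Counting settings and the annotation release were not given in the sources used here.

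A single table was deposited by the authors and holds RPKM values for 165956 Ensembl transcripts. Its header names no unit, so RPKM was inferred: multiplied by transcript length, 78.5% to 79.4% of low values lay within 0.1 of a whole multiple (up to 20) of a step that gives the depth. Many values are estimates in which reads were divided among transcripts, and read numbers derived from them cover counting error only. Of these transcripts, 140004 (84.4%) were matched by identifier to GENCODE 29 on GRCh38 and summed over 26409 genes. The other 25952 hold 3.44% to 3.68% of the RPKM. The members had 64 matched transcripts.

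Groups were compared with limma (mean-variance trend, log2(RPKM + 1), more than 1 RPKM in at least 3 libraries, Benjamini-Hochberg over 11884 genes, threshold 0.05). Ratios between members and transcript shares were compared by two-sided exact permutation over the 6 libraries. Replicates differed beyond counting noise (chi-square per gene of 6.67 or more), and replicate numbers did not pair libraries. The fit was tested on simulated data. Alternatives were median-of-ratios, upper-quartile and equal-sum scaling, no filter or one at 5 RPKM, a pseudocount of 0.1, protein-coding transcripts only, read equivalents, removal of a loess GC trend (span 0.5), the replicate block and leaving out each library.

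The members, gene lists and tests were chosen with earlier results of these data known. Named were all members, 16 genes of the G1 pathway and its regulators whatever their values, and up to 2 raised and 2 lowered genes per list with the largest log2 fold changes among those past the threshold and without overlap. Of these, 1 gene and 1 list are not reported here. Motifs were sought on both strands of RefSeq windows on GRCh38.p14. Python 3.11.15 with pandas 2.3.3, scipy 1.17.1, matplotlib 3.10.9 and numpy 2.4.6 was used, and limma 3.58.1 in R 4.3.3.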

Additional observations from a re-analysis of the deposited data

How the results depend on the processing

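The rises of CDKN1A and CCNG2 and the fall of CCNG1 passed the threshold in all 16 alternatives, with log2 differences of 1.04 to 1.41, 1.13 to 1.38 and -0.48 to -0.22. CDKN1B, CDKN2C and CCND1 did not pass in any, and each changed sign between alternatives. The number of members lowered was 1 in place of 2 with median-of-ratios or upper-quartile scaling, without a filter, with protein-coding transcripts only and with the replicate block, and 1 to 2 when each library was left out. The member lost was CCND3, whose log2 difference and adjusted p were -0.12 and 0.194 with median-of-ratios scaling, -0.10 and 0.249 with upper-quartile scaling, -0.20 and 0.0910 without a filter, -0.18 and 0.0513 with protein-coding transcripts only, and -0.25 to -0.17 when each library was left out. The cause was not tested. Over all genes, 2901 were lowered, against 1421 with median-of-ratios scaling, 1131 with upper-quartile scaling, 1367 without a filter and 1522 to 2852 when each library was left out. The number was 4219 after each library was scaled to the same sum, 3727 with read equivalents and 3213 with the GC trend removed.

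Same-numbered libraries did not deviate together (correlations 0.0901, 0.0301 and -0.2267), so the numbers are not taken as pairs. With the replicate block, 1465 genes were raised and 2664 lowered, CCND3 stood at -0.20 (adjusted p = 0.0654), and no other member changed its call.

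Depth limits CDKN1C, which rests on 12.0 to 38.9 estimated reads per library. Sums of RPKM weight short transcripts more than reads do, which touches CCND1 in hypoxia replicate 3.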

Other observations

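The CDK-activating kinase, which phosphorylates the kinases that the G1 cyclins bind, has 3 subunits. MNAT1, its assembly factor, had 16.6 ± 1.54 RPKM in hypoxia and 21.1 ± 1.04 RPKM in normoxia (SD, n = 3 each; log2 difference -0.33, limma adjusted p = 0.00848), a fall close in size to that of CCNH. CDK7, its kinase, had 11.8 ± 1.17 RPKM in hypoxia and 12.5 ± 0.419 RPKM in normoxia (-0.08, adjusted p = 0.454). Whether these changes differ from each other was not tested. These genes were chosen after their values were seen.

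Among the E2F factors, E2F4, which acts mostly as a repressor with the pocket proteins, had the highest level, at 58.7 ± 3.18 RPKM in hypoxia and 69.3 ± 1.85 RPKM in normoxia (log2 difference -0.24, limma adjusted p = 0.0115). Their shared partner TFDP1 had 54.5 ± 1.24 RPKM in hypoxia and 61.1 ± 0.807 RPKM in normoxia (-0.16, adjusted p = 0.0352). These genes too were chosen after their values were seen. The call of E2F4 was lost without normoxia replicate 1 (adjusted p = 0.0615), with median-of-ratios scaling (-0.15, adjusted p = 0.0750) and with upper-quartile scaling (-0.13, adjusted p = 0.102). That of TFDP1 was lost without hypoxia replicate 2 or any normoxic library (adjusted p of 0.0688 to 0.137), with median-of-ratios scaling (-0.08, adjusted p = 0.280), upper-quartile scaling (-0.06, adjusted p = 0.409), protein-coding transcripts only and the replicate block. The call of MNAT1 was lost with upper-quartile scaling (-0.23, adjusted p = 0.0601) and without a filter (adjusted p = 0.0619).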
